A study of Mus musculus with 24 samples.

Results

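The genes of the urea cycle and of other amino acid breakdown were followed in mouse liver. They were chosen by name, as the rows of the deposited tables whose gene symbol stood in a list of 51, and all 51 were found among the 15741 genes that the tables hold. Polyadenylated RNA was sequenced from the livers of 24 mice, in 8 groups of 3. The mice were wild type (WT) or had GCN2 knocked out in the whole body (KO). GCN2, the product of Eif2ak4, is an eIF2 kinase that is switched on when amino acids run short and uncharged transfer RNA builds up. Each genotype ate a Control diet or a diet devoid of leucine (LeuD), and mice were killed at circadian time 3 h (CT03) or 15 h (CT15). The 8 groups were therefore WT Control CT03, WT Control CT15, WT LeuD CT03, WT LeuD CT15, KO Control CT03, KO Control CT15, KO LeuD CT03 and KO LeuD CT15. What all groups shared was single housing with free access to food, 2 days on the Control diet under a 12-h light-dark cycle, and then 8 days of constant darkness that began 24 h after the diet groups parted. The knockout was not restricted to the liver, and the labels state no age, sex or strain. The study asked how the loss of GCN2, the LeuD diet and both together bear on the daily pattern of liver transcripts.

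As background, liver removes the nitrogen of amino acids mainly through the urea cycle, in which ammonia and aspartate nitrogen pass through carbamoyl phosphate, citrulline, argininosuccinate and arginine to urea. Transaminases and glutamate dehydrogenase collect the nitrogen, and separate pathways break down the carbon skeletons of tyrosine, tryptophan, serine, proline, histidine, glycine, lysine and methionine. Many of these enzymes are known to follow feeding, glucagon and glucocorticoids, and the urea cycle is concentrated in periportal hepatocytes while glutamine synthetase is restricted to pericentral ones.

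Of the 51 genes, 5 were called in 2 comparisons (Asl, Prodh, Amdhd1, Amt and Ddah1), 16 in 1 and 30 in none, where a call is an adjusted p under 0.05. The 250 bases before the annotated start are shown for those of the 5 with an entry in the RefSeq promoter table of build GRCm38.p6, and for 3 called genes that hold a searched motif. This build differs from GRCm39, the build in the submitters' processing notes. The windows lie, for Prodh at chr16:18089191-18089440 (minus strand), for Amdhd1 at chr10:93540034-93540283 (minus strand), for Amt at chr9:108296655-108296904 (plus strand), for Ddah1 at chr3:145758442-145758691 (plus strand), for Slc25a13 at chr6:6217174-6217423 (minus strand), for Cbs at chr17:31637206-31637455 (minus strand), and for Got1 at chr19:43524606-43524855 (minus strand). Each is written 5′ to 3′ on the strand of the gene, and capitals mark a match to CACGTG (the E-box bound by CLOCK and BMAL1) or, on either strand, TGATGCAA (a composite site of ATF4 and C/EBP).
Prodh: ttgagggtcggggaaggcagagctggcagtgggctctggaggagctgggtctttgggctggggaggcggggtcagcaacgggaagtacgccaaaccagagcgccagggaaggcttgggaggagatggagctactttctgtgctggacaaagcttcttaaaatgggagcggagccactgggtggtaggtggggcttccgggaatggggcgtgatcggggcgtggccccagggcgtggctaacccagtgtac
Amdhd1: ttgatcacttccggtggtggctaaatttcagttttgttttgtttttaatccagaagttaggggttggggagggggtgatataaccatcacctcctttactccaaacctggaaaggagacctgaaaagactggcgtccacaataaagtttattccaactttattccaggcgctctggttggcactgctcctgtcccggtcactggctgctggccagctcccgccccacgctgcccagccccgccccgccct
Amt: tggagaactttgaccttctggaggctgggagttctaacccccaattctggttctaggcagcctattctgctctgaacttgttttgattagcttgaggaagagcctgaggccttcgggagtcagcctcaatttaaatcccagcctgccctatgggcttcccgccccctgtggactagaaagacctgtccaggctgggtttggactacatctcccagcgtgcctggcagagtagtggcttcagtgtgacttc
Ddah1: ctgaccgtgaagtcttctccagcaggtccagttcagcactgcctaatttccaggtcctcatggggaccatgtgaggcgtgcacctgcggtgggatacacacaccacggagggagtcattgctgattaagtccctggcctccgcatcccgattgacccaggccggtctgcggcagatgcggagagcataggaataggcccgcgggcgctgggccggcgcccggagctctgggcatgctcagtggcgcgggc
Slc25a13: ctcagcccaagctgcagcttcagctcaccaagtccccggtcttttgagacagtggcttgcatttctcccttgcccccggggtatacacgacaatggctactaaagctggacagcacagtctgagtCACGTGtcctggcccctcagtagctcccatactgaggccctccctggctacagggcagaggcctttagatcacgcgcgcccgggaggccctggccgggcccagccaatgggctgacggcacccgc
Cbs: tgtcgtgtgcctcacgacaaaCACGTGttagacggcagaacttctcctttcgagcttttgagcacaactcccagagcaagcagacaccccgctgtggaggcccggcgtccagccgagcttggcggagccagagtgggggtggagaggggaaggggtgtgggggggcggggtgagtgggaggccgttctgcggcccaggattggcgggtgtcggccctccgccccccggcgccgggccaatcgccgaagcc
Got1: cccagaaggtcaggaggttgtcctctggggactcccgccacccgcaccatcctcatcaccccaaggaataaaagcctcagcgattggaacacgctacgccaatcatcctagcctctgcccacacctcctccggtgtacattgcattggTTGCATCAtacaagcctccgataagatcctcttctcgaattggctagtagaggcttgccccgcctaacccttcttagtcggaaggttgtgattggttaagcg

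Of the 51 genes 39 had an entry. CACGTG stood in the window of 4 of the 39 genes, 36 bases before the start in Ass1, 77 in Slc25a15, 125 in Slc25a13 and 229 in Cbs, and in 6.02% of 32851 promoter windows of that length. TGATGCAA stood in 1, Got1, 102 bases before the start, and in 0.791% of all windows. TTATGTAA, the D-box bound by DBP and NFIL3, stood in 0 of the 39 and in 0.819% of all. The 39 were counted by gene, with a match in any entry, while the shares are of single windows, so these are unlike measures. Slc25a15 had 2 entries, with its match in entry 2. Both strands were searched, the motifs do not overlap, and a match is a run of letters, not a shown binding site. The called genes Prodh, Amdhd1, Amt and Ddah1 held none of the 3 motifs in this window.

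The libraries held 34137121 to 44884200 reads in listed genes, and the 51 genes took 3.26% to 6.49% of them. All 6 hepatocyte markers tested (among them Alb, Apoa1 and Ttr) were present in each library, with a summed level of 84190 to 193300 RPM, the reads scaled to the depth of the library. That sum reached 154000 to 193300 RPM in KO LeuD (6 libraries) and 84190 to 145900 in the other groups (18 libraries). The share of mitochondrially encoded genes was 2.24% to 4.14% in KO LeuD and 4.23% to 6.31% elsewhere. Pancreas acinar markers (15 of 16 measured) summed to 14620 RPM in KO LeuD CT03 replicate 1, 7838 in KO LeuD CT15 replicate 3 and 4304 in WT LeuD CT15 replicate 1. The other 21 libraries had 9.66 to 71.1 RPM, apart from KO Control CT15 replicate 1 (664.8) and KO Control CT03 replicate 3 (267.9). KO LeuD CT03 replicate 3 stood apart from its mates, with a median distance of 0.53 (log2) over the 51 genes and 0.32 over all genes, and 40 of the 51 genes lay above both mates. KO LeuD CT15 replicate 3 and WT Control CT15 replicate 3 were above both mates in 39 and 38. Counts of genes above both mates were made for the 51 genes only. KO Control CT15 replicate 1 had the largest distance over all genes, 0.34. Counts of calls among the 51 genes that use 1 of the 3 acinar libraries or KO LeuD CT03 replicate 3 are given with and without them. Genes of other lists were counted with all libraries only. Eif2ak4 had 287.3 to 348.7 normalized counts in WT and 243.2 to 462.4 in KO, and reads summed over the gene cannot show the loss of an exon, so they do not check the genotype.

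Values below are normalized counts (reads over a size factor set across the 24 libraries), in the order replicate 1, 2 and 3. Changes are differences of log2(normalized count + 1) ± SE, tested with limma over all genes of a table and adjusted by the Benjamini-Hochberg method, with n = 3 mice per group. The p-values measure the spread among these mice alone, and comparisons that share a group of mice are not independent. In tissue RNA, fewer cells of a type and less RNA per cell cannot be told apart.

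Compared per exon length, the most abundant transcripts were those of Gnmt, which consumes S-adenosylmethionine to methylate glycine, and Ass1, the argininosuccinate synthetase of the urea cycle. Their medians over the 24 libraries were 2024 and 1509 RPKM (reads scaled to exon length and library size). Mat1a, which makes S-adenosylmethionine, Hpd of tyrosine breakdown and the arginase Arg1 followed at 1147, 1016 and 881 RPKM. The lowest medians were those of Sdsl (9.89 RPKM), a serine dehydratase-like enzyme, Acmsd (12.2 RPKM), which diverts tryptophan carbon from NAD synthesis, and Ido2 (17.4 RPKM), a tryptophan-cleaving dioxygenase. Between the lowest and the highest of the 8 group means the level of Ddah1, which degrades methylarginines, ranged 6.56-fold and that of Acmsd 6.12-fold. The mitochondrial aspartate transaminase Got2 and Gcsh, the lipoyl carrier of the glycine cleavage system, ranged 1.21-fold each.

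**Figure D1:**
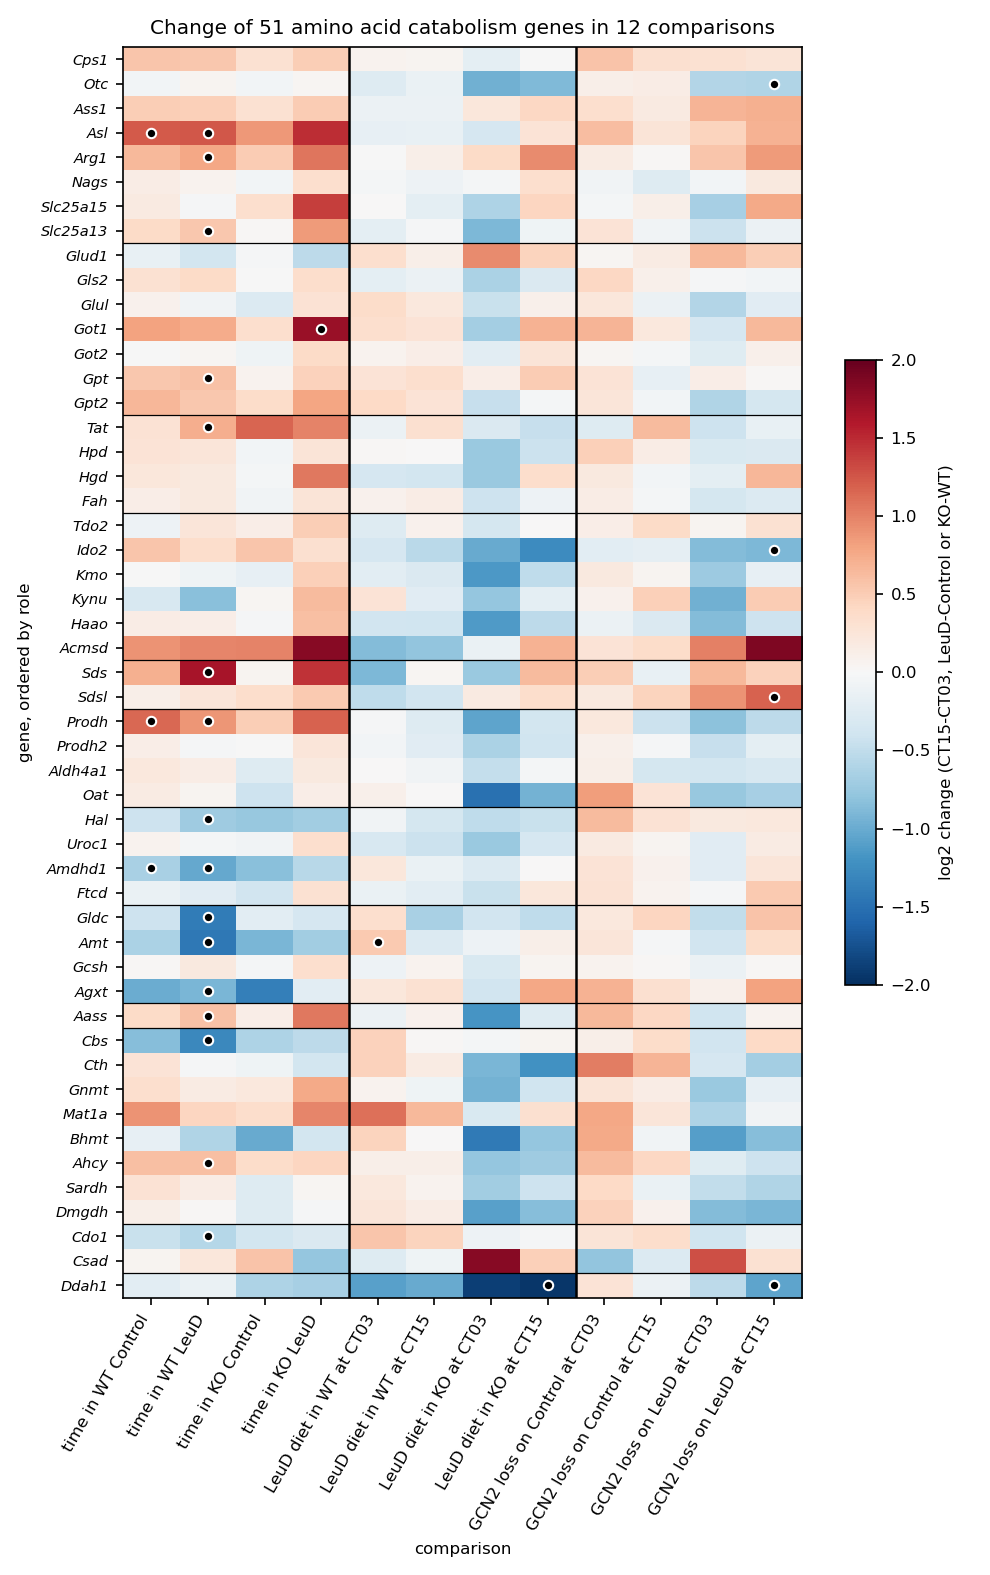
Change of each of the 51 genes (rows, ordered by role, with lines between roles) in 12 comparisons (columns: time, diet and genotype), as log2 of CT15 over CT03, LeuD over Control or KO over WT. Black dots mark calls at an adjusted p under 0.05: 16 of the 51 genes have one in the column for time in WT LeuD, and 0 to 4 in the others.

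In WT livers Asl of the urea cycle and Prodh of proline oxidation were higher at CT15 than at CT03 on both diets, and Amdhd1 of histidine breakdown was lower. On Control each of these calls was lost without most single libraries, as given below. On LeuD, 13 more genes were called, among them Arg1, Sds and Tat (higher) and Amt, Gldc and Cbs (lower). On Control, 2 of 51 genes were called higher at CT15 (0.869% of all genes tested) and 1 lower (0.548%), in all 1.42% of genes. On LeuD, 9 were called higher (4.32% of all genes) and 7 lower (5.29%), in all 9.61% of genes. The median change of the 51 genes was 0.15 on Control and 0.15 on LeuD, against 0.00 and 0.01 over all genes.

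Among the 8 urea cycle genes, Asl, which splits argininosuccinate into arginine and fumarate (ENSMUSG00000025533), changed most. On Control it had 19210, 11360 and 16930 counts at CT03 and 32390, 33870 and 43450 at CT15, and 12310, 14790 and 14350 at CT03 and 32850, 34840 and 30080 at CT15 on LeuD. On each diet the lowest CT15 library was above the highest CT03 library. Asl rose by 1.23 ± 0.21 (adjusted p = 0.0409) on Control and by 1.24 ± 0.12 (adjusted p = 0.000776) on LeuD. Arg1, which releases urea, had 61570, 39010 and 52790 at CT03 and 79730, 73240 and 84570 at CT15 on Control. On LeuD it had 45270, 51350 and 53410 at CT03 and 86290, 86770 and 83860 at CT15. The CT15 libraries were the higher ones on both diets, and Arg1 rose by 0.78 ± 0.13 (adjusted p = 0.00795) on LeuD, while on Control the difference did not pass (0.65 ± 0.19, adjusted p = 0.151). Slc25a13, the citrin carrier that supplies aspartate to the cycle, rose on LeuD by 0.55 ± 0.10 (adjusted p = 0.0158). On Control its CT15 libraries (10760, 11560 and 13120) also lay above those of CT03 (9006, 8272 and 9856), without a call.

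Cps1, the carbamoyl phosphate synthetase at the entry of the cycle, was not called at either diet, though its CT15 libraries lay above those of CT03 on both. Its levels on Control were 126100, 99860 and 96560 at CT03 and 134100, 148900 and 195900 at CT15 (0.56 ± 0.22, adjusted p = 0.252), and on LeuD 96290, 111600 and 131000 at CT03 and 163500, 182900 and 147100 at CT15 (0.55 ± 0.18, adjusted p = 0.0929). Nags, whose product N-acetylglutamate activates CPS1, overlapped between the times. It had 3139, 2634 and 3090 at CT03 and 3082, 3724 and 2985 at CT15 on Control, and 3211, 2782 and 2652 at CT03 and 3086, 3229 and 2802 at CT15 on LeuD. Its changes were 0.14 ± 0.12 and 0.08 ± 0.11 (adjusted p = 0.585 and 0.696). Of the 8 genes, 7 had a positive change on each diet, with a median of 0.43 on Control and 0.51 on LeuD.

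In proline and serine breakdown, Prodh and Sds were higher at CT15 as well. Prodh, the proline dehydrogenase that begins proline oxidation (ENSMUSG00000003526), had 4466, 4674 and 7163 at CT03 and 12100, 10800 and 12280 at CT15 on Control. On LeuD it had 5533, 5022 and 5202 at CT03 and 8112, 10460 and 10890 at CT15. The times did not overlap on either diet, and Prodh rose by 1.14 ± 0.18 (adjusted p = 0.0342) and 0.89 ± 0.13 (adjusted p = 0.00449). Sds, the serine dehydratase that feeds serine carbon to pyruvate, had 2506, 2532 and 3507 at CT03 and 9560, 7095 and 10050 at CT15 on LeuD, and it rose by 1.64 ± 0.17 (adjusted p = 0.00124). On Control, its levels of 11110, 3265 and 3970 at CT03 and 9915, 5501 and 11500 at CT15 overlapped, with CT03 replicate 1 as high as the CT15 libraries (0.71 ± 0.46, adjusted p = 0.471). Oat, the ornithine aminotransferase that links ornithine to proline, overlapped between the times in WT, at 25120, 27580 and 40870 at CT03 and 33230, 24900 and 47880 at CT15 on Control and 32990, 37520 and 28260 at CT03 and 32500, 36500 and 33390 at CT15 on LeuD. Its changes were 0.16 ± 0.27 and 0.06 ± 0.13 (adjusted p = 0.802 and 0.827).

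Of the aromatic pathways, only the first enzyme of tyrosine breakdown was called. Tat, the tyrosine aminotransferase, had 43850, 57340 and 44660 at CT03 and 86230, 89690 and 65720 at CT15 on LeuD, and rose by 0.72 ± 0.17 (adjusted p = 0.0362). On Control, at 70900, 35170 and 57120 at CT03 and 76090, 63410 and 54530 at CT15, the times overlapped. Tdo2, the dioxygenase that opens the tryptophan ring, had 62450, 53230 and 54090 at CT03 and 41710, 49730 and 69270 at CT15 on Control, and 41430, 47370 and 53160 at CT03 and 56550, 57890 and 52540 at CT15 on LeuD. It overlapped on both diets (-0.11 ± 0.20 and 0.24 ± 0.13, adjusted p = 0.831 and 0.314). None of the 6 tryptophan genes was called with time in WT. The transaminase Gpt, which moves the nitrogen of alanine to glutamate, rose on LeuD by 0.58 ± 0.12 (adjusted p = 0.0243). On Control it had 10400, 8925 and 10420 at CT03 and 13120, 13550 and 16430 at CT15, with no overlap and no call. Aass, the first enzyme of lysine breakdown, and Ahcy, which hydrolyses S-adenosylhomocysteine, also rose on LeuD, by 0.59 ± 0.09 (adjusted p = 0.00639) and 0.60 ± 0.14 (adjusted p = 0.0332). On Control, Ahcy had 68640, 64370 and 74880 at CT03 and 82460, 101200 and 138100 at CT15, without overlap. Aass overlapped there, at 13920, 9409 and 9137 at CT03 and 14150, 10510 and 18010 at CT15, and neither was called. Glul, the glutamine synthetase of pericentral hepatocytes, had 27360, 45870 and 50870 at CT03 and 40440, 42670 and 43920 at CT15 on Control, and 47680, 54420 and 53120 at CT03 and 55850, 49550 and 43080 at CT15 on LeuD, with overlap on both (0.08 ± 0.23 and -0.07 ± 0.14).

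Of the 4 genes of histidine breakdown, 1 was called lower at CT15 on Control and 2 on LeuD. Amdhd1, the imidazolonepropionase of histidine breakdown (ENSMUSG00000015890), had 11450, 9439 and 9461 at CT03 and 6627, 5830 and 6903 at CT15 on Control. On LeuD it had 11760, 12270 and 11510 at CT03 and 5194, 6042 and 6364 at CT15. All CT15 libraries were below all CT03 libraries, and Amdhd1 fell by 0.65 ± 0.12 (adjusted p = 0.0461) on Control and by 1.02 ± 0.10 (adjusted p = 0.00108) on LeuD. Hal, the histidase that starts the pathway, had 16580, 16990 and 17840 at CT03 and 9373, 11220 and 11090 at CT15 on LeuD and fell by 0.70 ± 0.11 (adjusted p = 0.00572). On Control, its levels of 22070, 16270 and 15930 at CT03 and 13100, 10980 and 16960 at CT15 overlapped. The urocanase Uroc1 (0.07 ± 0.11 on Control and -0.04 ± 0.12 on LeuD) and Ftcd, which acts on the last intermediate of the pathway (-0.14 ± 0.13 and -0.22 ± 0.12), did not pass on either diet. Hal and Amdhd1 are neighbours on 1 chromosome, with 0 genes between them in RefSeq (GRCm38.p6), and, with a kit that usually keeps no strand information, reads of overlapping transcripts cannot be told apart.

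Of the 4 glycine and glyoxylate genes, 3 were called lower at CT15 on LeuD and 0 on Control. Amt, the aminomethyltransferase of the glycine cleavage system (ENSMUSG00000032607), had 2732, 3542 and 3274 at CT03 and 1001, 1284 and 1244 at CT15. The times were far apart, and Amt fell by 1.44 ± 0.13 (adjusted p = 0.000776). On Control, Amt had 2255, 2069 and 2253 at CT03 and 1279, 2030 and 1082 at CT15, with CT15 replicate 2 close to the CT03 libraries (-0.63 ± 0.21, adjusted p = 0.183). Gldc, the decarboxylase of the same system, had 8843, 11080 and 12740 at CT03 and 3259, 5859 and 3587 at CT15 on LeuD and fell by 1.40 ± 0.22 (adjusted p = 0.00749). On Control, Gldc had 10030, 8061 and 7711 at CT03 and 5112, 6708 and 7604 at CT15, without overlap and without a call. Agxt, which converts peroxisomal glyoxylate to glycine, fell by 0.91 ± 0.21 (adjusted p = 0.0335) on LeuD. On Control, Agxt had 15440, 8811 and 7743 at CT03 and 4269, 5365 and 5902 at CT15, with no overlap. That change, -0.99, was the lowest of the 51 genes on Control and was not called. Cbs, which commits homocysteine to cysteine synthesis, had 27290, 28610 and 29170 at CT03 and 9972, 13510 and 11510 at CT15 on LeuD and fell by 1.29 ± 0.13 (adjusted p = 0.000912). On Control, Cbs had 23670, 19910 and 18520 at CT03 and 12860, 13670 and 8397 at CT15, also without overlap, and limma did not call it. Cdo1, the cysteine dioxygenase, fell by 0.57 ± 0.12 (adjusted p = 0.0248) on LeuD. On Control its times overlapped, at 45600, 59040 and 67700 at CT03 and 29800, 49260 and 48530 at CT15.

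**Figure D2:**
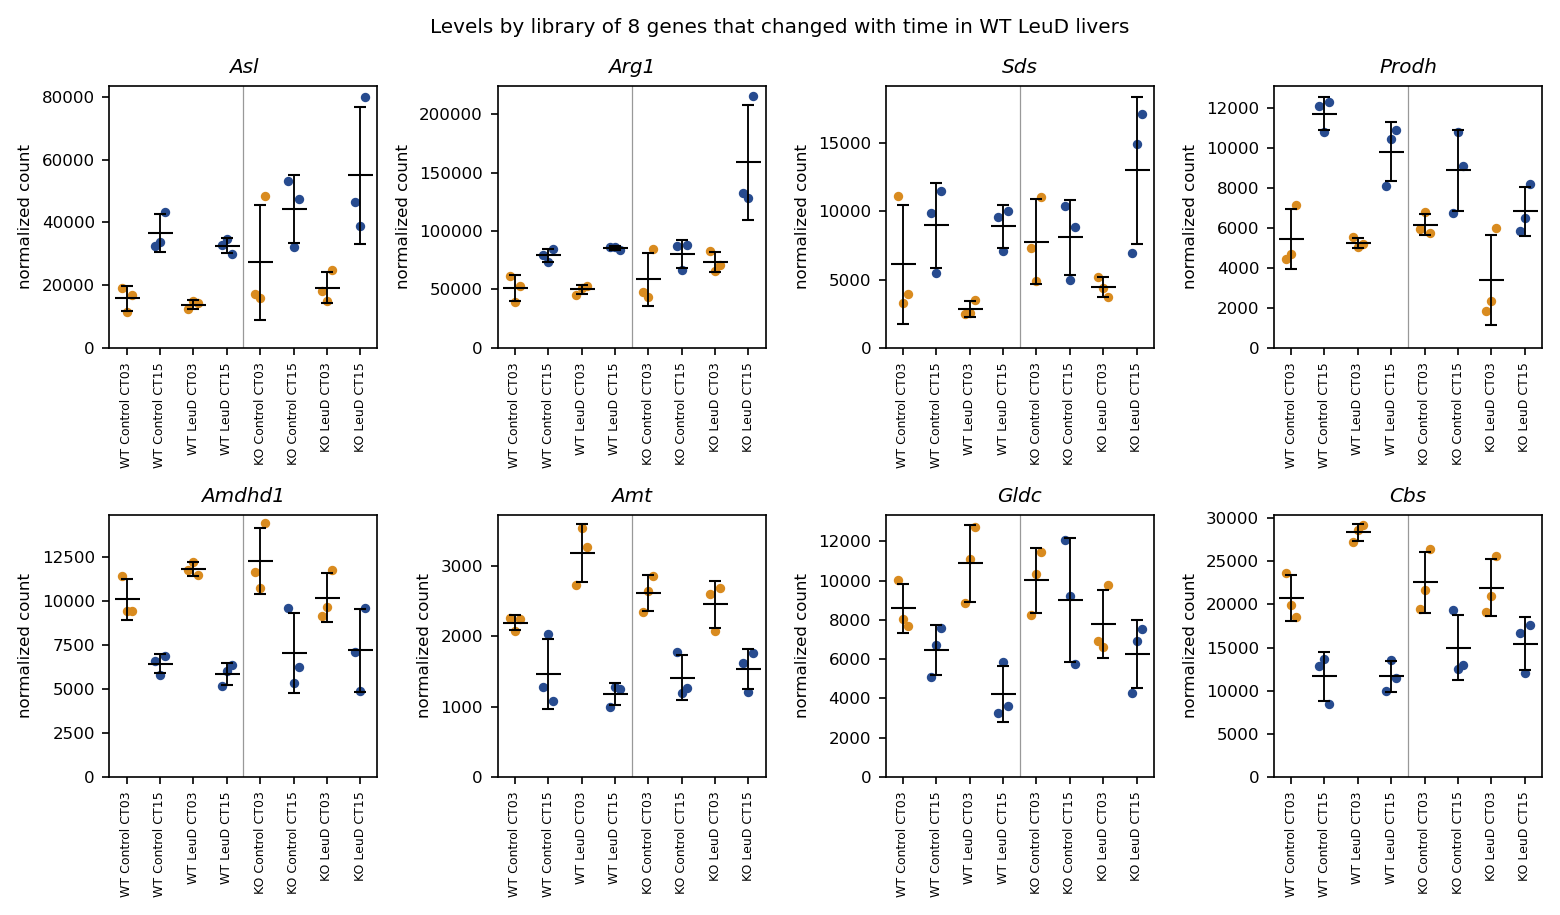
Normalized counts (vertical axis, from 0) of 8 genes in the 24 libraries, by group (orange points for CT03, blue for CT15, horizontal bars for the mean with SD as whiskers, n = 3). In WT LeuD the CT15 points of Asl, Arg1, Sds and Prodh all lie above the CT03 points, and those of Amdhd1, Amt, Gldc and Cbs all lie below them.

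These calls differed in how far they rested on single mice and on the method. On Control, DESeq2 on the recovered reads called 12 of the 51 genes (6.28% of all genes) and 1 fit of all 24 libraries called 1, Cbs, lower (1.07%), and leaving out any 1 of the 6 libraries left 0 or 1. There the call of Asl was kept only without CT03 replicate 1, and that of Prodh only without CT03 replicate 3. Amdhd1 was lost without any 1 of the 6 and with edgeR. Without CT15 replicate 2 the 1 gene called was Amt, lower at CT15. On LeuD, DESeq2 called 21 (13.7%) and the fit of 24 libraries 6 (4.94%). Without WT LeuD CT15 replicate 1, which carries acinar transcripts, 13 were called (6.54% of all genes), and Tat, Ahcy and Cdo1 no longer passed. Asl, Sds, Amdhd1, Gldc, Amt and Cbs passed under all 14 alternatives tried for LeuD, and Arg1, Prodh, Hal and Aass under all but the fit of 24 libraries. Slc25a13 was also lost without CT15 replicate 2, and Agxt without any 1 of the CT03 libraries. Gpt was lost without any library but CT15 replicate 1, Tat and Cdo1 without any but CT15 replicate 3, and Ahcy without any 1 of the 6. A difference between the diets was not called for any of the 51 genes (0.00686% of all genes). For Gldc, which had the lowest unadjusted p in that test, the change on LeuD minus the change on Control was -0.98 ± 0.31, adjusted p = 0.56.

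In KO livers fewer of the genes passed. On Control, limma called 0 of 51 with time (0.0407% of all genes), while 11 had an unadjusted p under 0.05, 3 higher and 8 lower. The count was 0 with edgeR (0.0339% of all genes), 4 with DESeq2 (2.43%) and 4 in the fit of 24 libraries (3.96%), and it stayed 0 without any 1 of the 6 libraries. On LeuD, 1 of 51 was called (0.805% of all genes). It was Got1, the cytosolic aspartate transaminase that supplies aspartate nitrogen, with 11510, 8471 and 10690 at CT03 and 24480, 32410 and 47540 at CT15. All 3 CT15 libraries were above all 3 at CT03, and Got1 rose by 1.72 ± 0.26 (adjusted p = 0.0308). On KO Control it overlapped, at 12230, 13620 and 25670 at CT03 and 35200, 8416 and 29690 at CT15 (0.34 ± 0.56, adjusted p = 0.849).

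Several genes called in WT had the same direction in KO LeuD without passing. Asl had 18060, 14860 and 24710 at CT03 and 46480, 38830 and 79960 at CT15, a difference of 1.48 ± 0.31, adjusted p = 0.0822. Arg1 had 83380, 66120 and 71180 at CT03 and 132600, 128600 and 215400 at CT15 (1.07 ± 0.30, adjusted p = 0.145), and Sds 5190, 4395 and 3760 at CT03 and 6946, 14950 and 17120 at CT15 (1.45 ± 0.33, adjusted p = 0.0949). In each of these 3 the times did not overlap. CT15 lay above CT03 without overlap in 12 of the 51 genes (11.1% of all genes) and below in 3 (10.8%). Prodh had 1862, 2344 and 5991 at CT03 and 5828, 6481 and 8209 at CT15, where CT03 replicate 3 lay above CT15 replicate 1 (1.18 ± 0.40, adjusted p = 0.21). Amdhd1, at 9168, 9686 and 11800 at CT03 and 7116, 4870 and 9636 at CT15, overlapped (-0.56 ± 0.25, adjusted p = 0.321). Amt had 2604, 2075 and 2681 at CT03 and 1626, 1210 and 1761 at CT15 (-0.69 ± 0.18, adjusted p = 0.136), and Cbs 19170, 21030 and 25590 at CT03 and 16720, 11990 and 17650 at CT15 (-0.52 ± 0.21, adjusted p = 0.274). The largest difference was that of Acmsd, 1.82 ± 0.38, adjusted p = 0.0756. Over the 51 genes, 38 had a positive change, with a median of 0.34 against 0.00 over all genes.

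On KO Control, the CT03 libraries were uneven. Replicate 3 had 48460 counts of Asl where its mates had 17260 and 15980, and it was above both mates in 34 of the 51 genes. Asl at CT15 had 53330, 32200 and 47540 (0.86 ± 0.44, adjusted p = 0.477). Prodh had 5971, 6791 and 5753 at CT03 and 6742, 10800 and 9109 at CT15 (0.50 ± 0.19, adjusted p = 0.373). Amdhd1 had 11690, 10790 and 14440 at CT03 and 9650, 5329 and 6254 at CT15 with no overlap (-0.84 ± 0.24, adjusted p = 0.267), and so did Amt, at 2342, 2649 and 2861 at CT03 and 1778, 1193 and 1258 at CT15 (-0.92 ± 0.18, adjusted p = 0.159). The direction of both is the one seen in WT. CT15 lay below CT03 without overlap in 7 of the 51 genes (10.1% of all genes) and above in 2 (9.73%). Agxt had the lowest change of the 51 genes, -1.37, also uncalled, at 12350, 10010 and 36650 at CT03 and 6717, 6775 and 5850 at CT15. Tat spread widely at CT15, at 168800, 60730 and 94720 against 33620, 36550 and 68710 at CT03 (1.17 ± 0.43, adjusted p = 0.343).

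The time effect was then tested for a difference between genotypes. Of the 51 genes, 0 were called on Control (0.0275% of all genes) and 0 on LeuD (0.0207%), so the lower number of calls in KO is not shown to be a genotype difference. On LeuD the lowest unadjusted p belonged to Slc25a15, the ornithine carrier of the urea cycle, whose change was -0.03 ± 0.16 in WT and 1.39 ± 0.27 in KO (KO minus WT 1.42 ± 0.33, adjusted p = 0.315). Kynu, the kynureninase of tryptophan breakdown, had -0.84 ± 0.27 in WT and 0.63 ± 0.29 in KO (KO minus WT 1.47 ± 0.45, adjusted p = 0.394). In KO, the difference between the diets was called for 0 of 51 (0% of all genes). For KO LeuD over time, DESeq2 called 12 of the 51 genes (5.69% of all genes) and the fit of 24 libraries 11 (8.11%). The call of Got1 was lost without CT03 replicate 1 or 2 or CT15 replicate 2 or 3. Without KO LeuD CT03 replicate 3, limma called 5, all higher at CT15 (4.06% of all genes): Asl, Slc25a15, Slc25a13, Got1 and Prodh. Without the acinar libraries KO LeuD CT03 replicate 1 and CT15 replicate 3 it called 0 (0.0603% of all genes).

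The LeuD diet changed few of the genes in WT. At CT03, 1 of 51 was called (2.24% of all genes) and at CT15 0 (0.186%). The gene called was Amt, which rose by 0.53 ± 0.11 (adjusted p = 0.0487) from 2255, 2069 and 2253 on Control to 2732, 3542 and 3274 on LeuD at CT03, with no overlap. At CT15, Amt overlapped at 1279, 2030 and 1082 on Control and 1001, 1284 and 1244 on LeuD (-0.27 ± 0.23, adjusted p = 0.658). The median change of the 51 genes was 0.01 at CT03 and -0.02 at CT15. At CT15, 6 of the 51 genes had an unadjusted p under 0.05, as did 1954 of all 15073. There edgeR called 0 (0.0929% of all genes), DESeq2 4 (3.7%) and the fit of 24 libraries 0 (0.0208%). Without the acinar library WT LeuD CT15 replicate 1 limma called 0 (0.0796%). At CT03 DESeq2 called 5 (7.23%) and the fit of 24 libraries 0 (0.166%), and the call of Amt was lost without any 1 of 5 libraries, the exception being WT LeuD CT03 replicate 1. The WT LeuD CT03 libraries enter both calls of Amt, with time and with diet.

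Ddah1, the dimethylarginine dimethylaminohydrolase that breaks down methylated arginines released from proteins (ENSMUSG00000028194), was lower on LeuD in each genotype and at each time. In WT at CT03 it had 4030, 5475 and 4899 on Control and 2982, 2694 and 1399 on LeuD (-1.09 ± 0.26, adjusted p = 0.0709). In WT at CT15 it had 4216, 3397 and 4880 on Control and 2205, 1876 and 2075 on LeuD (-1.01 ± 0.14, adjusted p = 0.0514). In KO at CT03 it had 5514, 5977 and 5892 on Control and 970.9, 1198 and 3302 on LeuD (-1.89 ± 0.41, adjusted p = 0.222). In all of these the LeuD libraries lay below the Control libraries, and none passed. Over all genes this held for 11.9% in WT at CT03, 9.53% in WT at CT15 and 9.79% in KO at CT03. In KO at CT15 it had 3996, 3903 and 3512 on Control and 1155, 826.7 and 1009 on LeuD, and it fell by 1.95 ± 0.16 (adjusted p = 0.0264), the 1 gene of the 51 called in that comparison (0.0202% of all genes). The change in KO minus that in WT was -0.94 ± 0.22, adjusted p = 0.117 at CT15, which did not pass.

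The KO CT15 call of Ddah1 was lost without any 1 of 5 libraries, the exception being KO Control CT15 replicate 1. Without that library 4 of the 51 genes were called (1.37% of all genes). Without KO LeuD CT15 replicate 3, which carries acinar transcripts, 0 were (0% of all genes). DESeq2 called 9 (4.82%) and the fit of 24 libraries 4 (8.47%). The largest differences that did not pass in KO at CT15 were those of Ido2 (-1.26 ± 0.26, adjusted p = 0.0972) and Cth, the cystathionine lyase that yields cysteine (-1.20 ± 0.44, adjusted p = 0.249). Mat1a had the largest difference that did not pass in WT at CT03 (1.11 ± 0.27, adjusted p = 0.0762), and Acmsd the largest after Ddah1 at CT15 (-0.79 ± 0.43, adjusted p = 0.474).

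In KO livers at CT03 most of the genes lay lower on LeuD than on Control, and none passed over all 6 libraries. Of the 51 genes 45 had a negative change, and the median was -0.48 against 0.00 over all genes. limma called 0 (0% of all genes), while 23 had an unadjusted p under 0.05, 2 higher and 21 lower, and edgeR called 0 (0%). Over all genes, 2173 of 14888 had an unadjusted p under 0.05 with limma. For 14 genes all LeuD libraries lay below all Control libraries, as for 9.79% of all genes. DESeq2 called 9 (3.51%) and the fit of 24 libraries 12 (4.31%). Within the roles, all 6 tryptophan genes had a negative change (median -0.89), as did all 4 proline and ornithine genes (median -0.84) and all 8 methionine and methyl group genes (median -0.84). The 4 tyrosine, 4 histidine and 4 glycine and glyoxylate genes were all negative too (medians -0.58, -0.48 and -0.34), as were Aass and Ddah1. The 8 urea cycle genes had a median of -0.27, with 2 positive.

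The 3 KO LeuD CT03 libraries were unlike each other. In replicates 1 and 2, 38 and 37 of the 51 genes lay below the lowest KO Control CT03 library, and 16 did in replicate 3. These counts were not made over all genes, so a shift of the whole library cannot be told from one of these genes. Oat had 11100, 15130 and 43740 on LeuD against 43820, 44490 and 83080 on Control, so that replicate 3 was next to the Control libraries (-1.49 ± 0.52, adjusted p = 0.308). Prodh had 1862, 2344 and 5991 against 5971, 6791 and 5753 and Ddah1 970.9, 1198 and 3302 against 5514, 5977 and 5892, again with replicate 3 the highest of the LeuD libraries. Bhmt, which remethylates homocysteine with betaine, had 99410, 73800 and 157800 against 192600, 284800 and 396500 (-1.41 ± 0.41, adjusted p = 0.277). Replicate 3 also had 4.14% of reads in mitochondrially encoded genes, where replicates 1 and 2 had 2.24% and 2.86%. The part of this difference in the result was not tested.

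Without replicate 3, 17 of the 51 genes were called (8.29% of all genes). That library was singled out after its values were seen, and with 2 mice left in the group the test assumes that they vary like the others. The 2 left are replicate 2 and replicate 1, which had the most acinar transcripts of the 24 libraries (14620 RPM). Without replicate 1 in place of replicate 3, 0 of the 51 were called (0% of all genes). Of the 17, 16 were lower on LeuD. In proline and ornithine breakdown they were Prodh (-1.56, adjusted p = 0.0125), Prodh2, which oxidises hydroxyproline, and Oat (-2.07, adjusted p = 0.0231). In tryptophan breakdown they were Kmo (-1.39, adjusted p = 0.0139), Kynu and Haao (-1.67, adjusted p = 0.0177), which act in sequence on kynurenine. Among the methionine and methyl group genes they were Gnmt (-1.56, adjusted p = 0.0209), Bhmt, and Dmgdh and Sardh, which demethylate dimethylglycine and sarcosine. The others were the ornithine transcarbamylase Otc (-1.16, adjusted p = 0.0251), Slc25a13, the fumarylacetoacetase Fah, the urocanase Uroc1, Aass and Ddah1 (-2.42, adjusted p = 0.00448). The gene called higher was Csad, which decarboxylates cysteine sulfinate toward taurine (1.53, adjusted p = 0.0324). Over all libraries Csad had 5391, 4060 and 8392 on LeuD and 1196, 1540 and 2283 on Control (1.81 ± 0.32, adjusted p = 0.189).

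**Figure D3:**
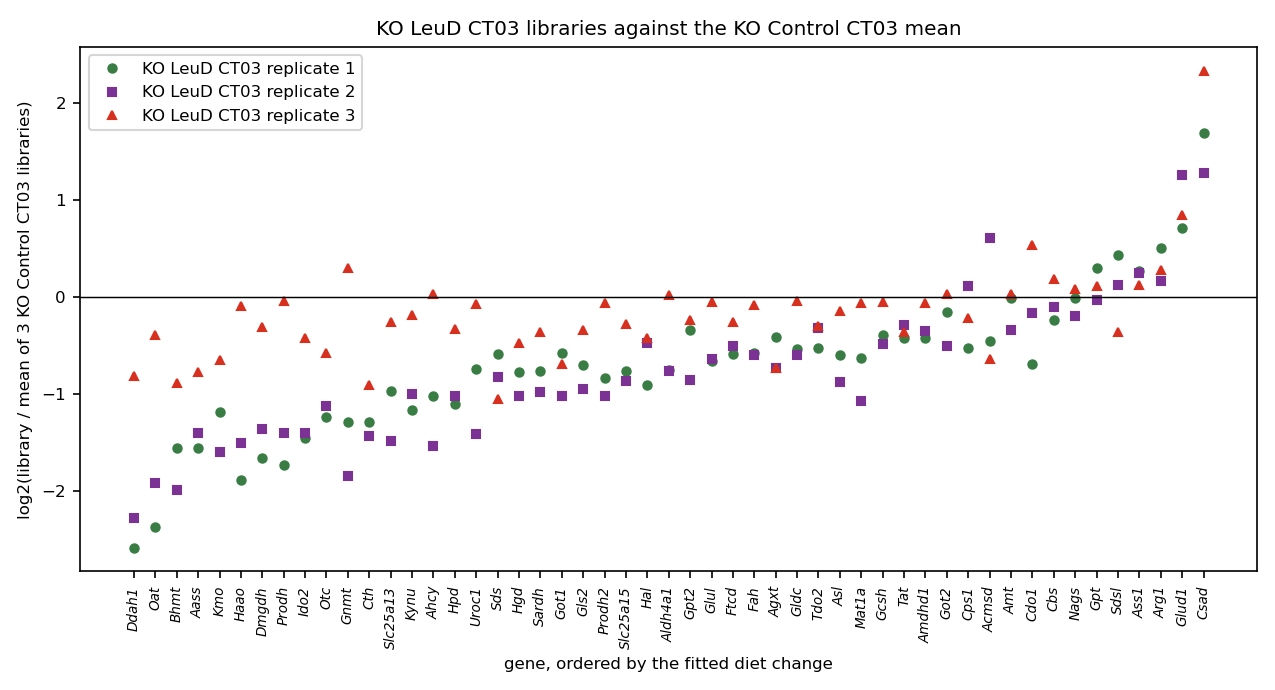
Level of each of the 51 genes (horizontal axis, ordered by the fitted diet change) in the 3 KO LeuD CT03 libraries, as log2 of the library over the mean of the 3 KO Control CT03 libraries (vertical axis). Circles and squares (replicates 1 and 2) lie below 0 for most genes, and triangles (replicate 3) lie nearer to 0, above both mates in 40 of 51.

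A difference in the diet effect between KO and WT was called for 0 of 51 genes at CT03 (0% of all genes) and 0 at CT15 (0.0206%). Without KO LeuD CT03 replicate 3, 17 were called at CT03 (7.34% of all genes), 1 positive (Csad) and 16 negative, and without the acinar library KO LeuD CT03 replicate 1, 0 were (0% of all genes). Over all libraries the lowest unadjusted p at CT03 was that of Csad, whose diet change was -0.26 ± 0.29 in WT and 1.81 ± 0.32 in KO (KO minus WT 2.07 ± 0.49, adjusted p = 0.251). Sardh had 0.20 ± 0.12 and -0.70 ± 0.21 (KO minus WT -0.90 ± 0.23, adjusted p = 0.274). At CT15, Otc had -0.14 ± 0.11 in WT and -0.89 ± 0.16 in KO (KO minus WT -0.75 ± 0.19, adjusted p = 0.136). The other 4 tests of a difference between effects that use an acinar library also called 0 of 51 without it (0% of all genes in each). Without KO LeuD CT03 replicate 3, time by diet in KO (0.00694% of all genes) and time by genotype on LeuD (0.248%) called 0 too. In the 6 tests of a difference between effects (time by diet in WT and in KO, time by genotype on Control and on LeuD, diet by genotype at CT03 and at CT15) the number with an unadjusted p under 0.05 was 3, 6, 3, 7, 15 and 9 of 51. Over all genes it was, in the same order, 958 of 14568, 930 of 14415, 743 of 14525, 1365 of 14492, 1909 of 14497 and 1764 of 14588. edgeR called 0 of the 51 genes in all 6 (0% to 0.0277% of all genes). DESeq2 called 0 in the first 3 (0.511%, 0.306% and 0.0694% of all genes), then 1 for time by genotype on LeuD (0.79%), 3 for diet by genotype at CT03 (1.24%) and 2 at CT15 (2.05%).

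KO and WT livers differed in 4 of the 51 genes, all on LeuD at CT15. There, 1 was higher in KO (1.24% of all genes) and 3 lower (0.652%), in all 1.89% of genes. Otc, which makes citrulline in the urea cycle, had 11260, 11910 and 11730 in WT and 8052, 7090 and 7980 in KO, and it fell by 0.60 ± 0.12 (adjusted p = 0.043). Ido2 had 2720, 2558 and 2678 in WT and 1416, 1689 and 1216 in KO and fell by 0.89 ± 0.14 (adjusted p = 0.0243). Ddah1 had 2205, 1876 and 2075 in WT and 1155, 826.7 and 1009 in KO and fell by 1.05 ± 0.15 (adjusted p = 0.019). In all 3 the KO libraries lay below the WT libraries without overlap. Sdsl was the gene higher in KO, with 460.2, 585.3 and 492.5 in WT and 941, 1156 and 1420 in KO, also without overlap, and it rose by 1.18 ± 0.18 (adjusted p = 0.0205). Acmsd was higher in KO without passing, at 1730, 1278 and 535.8 against 3077, 3054 and 6043 (1.86 ± 0.42, adjusted p = 0.0638). Dmgdh was lower without passing (-0.91 ± 0.19, adjusted p = 0.0534). Without overlap, KO lay above WT in 8 of the 51 genes (13% of all genes) and below in 10 (11.6%).

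**Figure D4:**
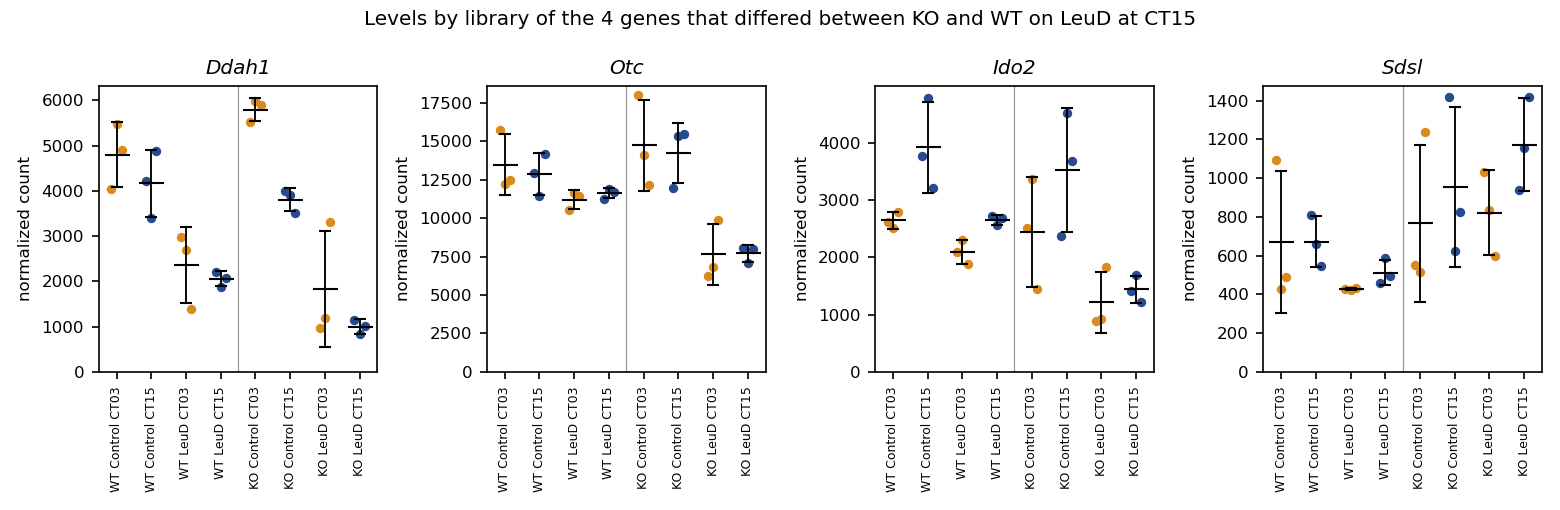
Normalized counts (vertical axis, from 0) of Ddah1, Otc, Ido2 and Sdsl in the 24 libraries, by group (orange points for CT03, blue for CT15, horizontal bars for the mean with SD as whiskers, n = 3). At LeuD CT15 the KO points of Ddah1 (826.7 to 1155), Otc and Ido2 lie below the WT points and those of Sdsl above them.

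These 4 calls came from 6 libraries of which WT LeuD CT15 replicate 1 and KO LeuD CT15 replicate 3 carry acinar transcripts, and without both 0 of 51 were called (0.166% of all genes). Without either of them alone, or without WT LeuD CT15 replicate 2 or 3, the count was 0 as well, and Otc was lost without any 1 of the 6. The KO LeuD CT15 libraries enter both calls of Ddah1, with diet and with genotype. DESeq2 called 14 (7.52%) and the fit of 24 libraries 3 (3.91%). The KO LeuD livers also had the higher hepatocyte marker sums and the lower mitochondrial shares given above, and the part of these in the calls was not tested. The 4 called genes are not among the rate-controlling genes. Of those, at LeuD CT15, Arg1 was 86290, 86770 and 83860 in WT and 132600, 128600 and 215400 in KO (0.85 ± 0.24, adjusted p = 0.11), and Oat 32500, 36500 and 33390 in WT and 24540, 21040 and 19030 in KO (-0.67 ± 0.15, adjusted p = 0.061). Neither overlapped between the genotypes. Cps1 had 181900, 165600 and 250400 in KO (0.26 ± 0.24, adjusted p = 0.606), Nags 2949, 3427 and 4136 (0.19 ± 0.15, adjusted p = 0.514) and Tdo2 44490, 91870 and 80390 (0.31 ± 0.27, adjusted p = 0.572), each overlapping the WT values given above. Glul had 44250, 40680 and 41620 in KO (-0.22 ± 0.16, adjusted p = 0.489) and Tat 59770, 93780 and 67210 (-0.14 ± 0.23, adjusted p = 0.781), again with overlap. Sds had 6946, 14950 and 17120 in KO and Hal 8833, 10260 and 19790, which also overlapped the WT values given above.

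On LeuD at CT03, limma called 0 of the 51 genes for genotype (0.0416% of all genes), with 19 at an unadjusted p under 0.05. Over all genes, 1976 of 14420 were at such a p. Of the 51, 38 were lower in KO, with a median of -0.35 against 0.00 over all genes. edgeR called 0 (0.0416% of all genes), DESeq2 7 (3.27%) and the fit of 24 libraries 1 (0.839%). Without KO LeuD CT03 replicate 3, 23 were called (13.4% of all genes), 20 of them lower in KO. Without the acinar library replicate 1 in its place, 0 were called (0.0277% of all genes). In the fit without replicate 3, Ido2, Prodh and Haao had the lowest adjusted p among those lower (-1.20, adjusted p = 0.00251 for Ido2, -1.33, adjusted p = 0.00224 for Prodh and -1.40, adjusted p = 0.00442 for Haao). The 3 higher in KO were Acmsd (1.25, adjusted p = 0.0471), Sds and Sdsl (1.11, adjusted p = 0.00453). In replicates 1 and 2, 35 and 37 of the 51 genes lay below the lowest WT LeuD CT03 library, and 9 did in replicate 3. Above the highest WT LeuD CT03 library lay 10 in each of replicates 1 and 2 and 25 in replicate 3. Such counts by library were made for the 51 genes only, with no share over all genes to set beside them. Glul, at 29810, 30410 and 45380 in KO and 47680, 54420 and 53120 in WT, did not overlap (-0.58 ± 0.21, adjusted p = 0.325). Hal, at 15860, 21380 and 22170 in KO and 16580, 16990 and 17840 in WT, did (0.19 ± 0.17, adjusted p = 0.617). All KO libraries lay below all WT libraries for 9 of the 51 genes (9.73% of all genes) and above them for 8 (9.64%).

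On the Control diet the genotypes differed in 0 of the 51 genes at CT03 (0.0136% of all genes) and 0 at CT15 (0.0798%). At CT03, 45 of the 51 genes had a positive change, with a median of 0.25 against -0.01 over all genes, and 11 lay above WT in every KO library, as 7.45% of all genes did. At an unadjusted p under 0.05 there were 5 at CT03 and 0 at CT15, against 1200 of all 14674 genes and 825 of all 15031. edgeR called 0 of the 51 at CT03 (0.00685% of all genes) and at CT15 (0.0798%), DESeq2 0 (0.624% and 0.321%) and the fit of 24 libraries 0 (0.0624% and 0.146%). The largest differences were those of Cth, 1.03 ± 0.51, adjusted p = 0.647 at CT03 and 0.69 ± 0.34, adjusted p = 0.791 at CT15. Cth had 14510, 15720 and 55750 in KO at CT03, so that replicate 3 alone was far above the WT values of 17140, 8453 and 10320. Oat had 43820, 44490 and 83080 in KO and 25120, 27580 and 40870 in WT at CT03 (0.83 ± 0.29, adjusted p = 0.576), and Hal 25170, 19390 and 44330 in KO and 22070, 16270 and 15930 in WT (0.64 ± 0.30, adjusted p = 0.633). In both, replicate 3 was the highest KO library. Leaving out any 1 library left the count of calls at 0 at both times.

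Over all libraries the other 30 genes were called in no comparison. They were Cps1, Ass1, Nags and Slc25a15 (urea cycle), Glud1, Gls2, Glul, Got2 and Gpt2 (glutamate, glutamine and transaminases), Hpd, Hgd and Fah (tyrosine), Tdo2, Kmo, Kynu, Haao and Acmsd (tryptophan), Prodh2, Aldh4a1 and Oat (proline and ornithine), Uroc1 and Ftcd (histidine), Gcsh (glycine and glyoxylate), Cth, Gnmt, Mat1a, Bhmt, Sardh and Dmgdh (methionine, transsulfuration and methyl groups), Csad (cysteine and taurine). Their changes over the 12 comparisons ran from -1.49 (Oat, LeuD diet in KO at CT03) to 1.86 (Acmsd, GCN2 loss on LeuD at CT15). The smallest ranges of group means among the 51 genes, those of Got2 and Gcsh, belong to this set, and so does the wide range of Acmsd.

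Genes outside the 51 were counted by list, with all libraries of a comparison. Whether their calls hold without the acinar libraries or KO LeuD CT03 replicate 3 was not tested. Of 48 other amino acid catabolism genes 45 were measured, and in WT LeuD with time 6 were called higher at CT15 (4.32% of all genes) and 3 lower (5.29%). The higher ones included Ddo, the D-aspartate oxidase (0.72 ± 0.16, adjusted p = 0.0263), and the polyamine enzyme Odc1 (0.86 ± 0.14, adjusted p = 0.00776), besides Afmid, Mtrr and Gamt. The lower ones were Ethe1, the mitochondrial persulfide dioxygenase (-1.34 ± 0.15, adjusted p = 0.00144), Kyat1 and Grhpr. Ddo was also called higher at CT15 in WT Control (0.94 ± 0.10, adjusted p = 0.00927) and in KO LeuD (1.71 ± 0.26, adjusted p = 0.0309), and Kyat1, a kynurenine aminotransferase, was called higher on LeuD in WT at CT03 (0.82 ± 0.10, adjusted p = 0.00808). In the other comparisons of a pair of groups 0 of the 45 were called.

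Of 14 known regulators of these pathways, all measured, 3 rose with time in WT LeuD, where 4.32% of all genes did: Foxo1, Foxo3 and Ppara (0.57 ± 0.14, adjusted p = 0.04 for Ppara). In KO LeuD with time 1 rose (0.644% of all genes), Ppara (0.82 ± 0.14, adjusted p = 0.0471), and in the remaining comparisons of a pair of groups 0 were called. Among 10 pericentral hepatocyte markers, with time in WT LeuD 1 was called higher (Slc1a2) and 2 lower (Lgr5 and Axin2), and among 8 periportal markers 1 was called lower (Cdh1). Of all genes, 4.32% were called higher there and 5.29% lower. For GCN2 loss on LeuD at CT15, the glutamate transporter Slc1a2 was called lower in KO (-1.76 ± 0.23, adjusted p = 0.0146), and the periportal markers Cdh1 (1.46 ± 0.21, adjusted p = 0.0201) and Hsd17b13 (0.63 ± 0.13, adjusted p = 0.049) higher. No other pericentral or periportal marker of these lists was called there. Without the acinar libraries, calls over all genes in this comparison fell from 1.89% to 0.166%, and whether the marker calls hold was not tested. On LeuD in WT at CT03, Axin2 was called higher and Mup20 lower. The part of these markers in the changes of the 51 genes was not tested.

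The authors' deposited tables carry an adjusted p of their own, which at the same threshold calls at least as many of the 51 genes in each comparison. Shares are of all genes with an adjusted p in the authors' deposited table. With time, the authors' deposited tables call 9 higher and 3 lower in WT Control (6.2% of all genes), 12 and 9 in WT LeuD (13.7%), 1 and 3 in KO Control (2.43%) and 11 and 1 in KO LeuD (5.68%). With the LeuD diet, the authors' deposited tables call 4 higher and 1 lower in WT at CT03 (7.22% of all genes) and 1 and 3 in WT at CT15 (3.7%). In KO the authors' deposited tables call 2 higher and 7 lower with the diet at each time (3.51% of all genes at CT03 and 4.82% at CT15). For GCN2 loss on Control the authors' deposited tables call 0 at CT03 (0.649% of all genes) and at CT15 (0.321%).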

How the data were processed

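RNA of 24 livers was enriched for messenger RNA on oligo(dT) and sequenced from libraries made with a kit that usually keeps no strand information. The submitters' processing notes name STAR 2.5.2b, Trimmomatic 0.36, Subread 1.5.2, featureCounts, DESeq and DESeq2, and genome build GRCm39. For roles, settings, annotation and multimapping reads, nothing is given in the sources used here. Per the file headers, the authors deposited 10 tables, each of a pair of groups, each with 6 library values beside a log2 fold change, p-value and adjusted p. The deposited library values are a signal, namely gene counts divided by a size factor set in each table. Their steps gave whole reads in 58 of 60 library columns (100% of values within 0.01). In the other 2 the size factor was too near 1, and reads came from other tables. Over 44 pairs of columns of a shared library, 0 recovered reads differed. Tables listed 14674 to 15073 genes.

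The main test was limma 3.58.1 (R 4.3.3) with a trended prior variance, on log2(normalized count + 1), 2-sided, adjusted over all genes of a table by the Benjamini-Hochberg method. This scale understates the change of genes with few reads. GCN2 loss on LeuD, for which no table was used, was tested on the reads recovered for 14420 genes, scaled over the 24 libraries, and 6 differences between effects on the 12 libraries of a pair of tables. Alternatives were a pseudocount of 8, a mean of at least 50, TMM scaling, edgeR 4.0.16, DESeq2 1.42.0, 1 fit of all 24 libraries, a replicate block, each library left out, and 3 acinar libraries left out. The fitting code was tested on simulated data. No libraries of a group agreed within sampling noise (lowest chi-square 34.2 per degree of freedom). RPKM used union exon lengths of GENCODE M21.

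The members, lists and tests were chosen with earlier results of these data known. By rule every called gene was named (beyond 10 in a comparison, values for the 10 lowest p; the others got values too), and levels by library were given for genes called in at least 2 comparisons and for 9 rate-controlling genes. Genes named outside that rule (such as Csad, Bhmt, Gldc and Cbs levels, and the Control levels of Agxt, Gpt and other genes called on LeuD) were chosen after their values were seen. A called gene outside the members is not reported here. Libraries held 34137121 to 44884200 reads, and counting error was small beside the spread between mice.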

Additional observations from a re-analysis of the deposited data

How the results depend on the processing

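The replicate numbers were not taken as pairs of mice, and the labels do not say whether they are. In 0 of the 12 comparisons of a pair of groups did all 3 same-numbered pairs correlate above 0.1 (correlations from -0.38 to 0.39). With 3 mice per group such correlations cannot exclude a pairing. With a replicate block the number of the 51 genes called went from 3 to 0 for time in WT Control, from 1 to 0 for time in KO LeuD, from 1 to 0 for the LeuD diet in WT at CT03, from 0 to 1 (Ddah1) for the LeuD diet in WT at CT15, from 1 to 0 for the LeuD diet in KO at CT15 and from 4 to 0 for GCN2 loss on LeuD at CT15. For time in WT LeuD it went from 16 to 11, with the calls of Gpt, Tat, Agxt, Ahcy and Cdo1 lost.

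DESeq2 called more genes than limma: 12 for time in WT Control, 4 for time in KO Control, 12 for time in KO LeuD, 5 and 4 for the LeuD diet in WT at CT03 and CT15, 9 for the LeuD diet in KO at each time, 7 and 14 for GCN2 loss on LeuD at CT03 and CT15, 1 for time by genotype on LeuD, and 3 and 2 for diet by genotype at CT03 and CT15. In 1 fit of all 24 libraries the count was 1 for time in WT Control, 6 for time in WT LeuD, 4 for time in KO Control, 11 for time in KO LeuD, 0 for the LeuD diet in WT at CT03, 12 and 4 for the LeuD diet in KO at CT03 and CT15, and 1 for GCN2 loss on LeuD at CT03. TMM scaling called 1, Ddah1, for the LeuD diet in WT at CT15. Without the acinar libraries the count was 0 for time in KO LeuD, for the LeuD diet in KO at CT15 and for GCN2 loss on LeuD at CT15. edgeR, a pseudocount of 8 and a mean of at least 50 kept each count within 1.5 times. For all of these the cause was not tested.

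With each library left out in turn, the count was 0 to 1 for time in WT Control, 0 to 5 for time in KO LeuD, 0 to 1 for the LeuD diet in WT at CT03, 0 to 1 at CT15, 0 to 17 for the LeuD diet in KO at CT03, 0 to 4 at CT15, 0 to 23 for GCN2 loss on LeuD at CT03, 0 to 4 at CT15, and 0 to 17 for diet by genotype at CT03. The counts of 5, 17, 23 and 17 came without KO LeuD CT03 replicate 3. Among the changes of named genes under each alternative, 1511 kept direction and side of the threshold, 67 gained a call, 116 lost it, and 20 turned direction, all of them uncalled and with a library left out. Their ranges were, with time in KO Control, -0.054 to 0.15 for Slc25a13, -0.030 to 0.16 for Gpt, -0.23 to 0.37 for Sds, -0.067 to 0.44 for Aass, -0.044 to 0.99 for Got1 and -0.45 to 0.080 for Gldc; with time in KO LeuD, -0.58 to 0.030 for Cdo1; with the LeuD diet in KO at CT03, -0.18 to 0.014 for Amt; and with GCN2 loss on Control, -0.20 to 0.62 for Sdsl, -0.036 to 0.24 for Otc and -0.48 to 0.13 for Ido2 at CT03 and -0.26 to 0.0035 for Ddah1 and -0.39 to 0.075 for Ido2 at CT15.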
